A study of Mus musculus with 9 samples.

Results

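The 10 genes described here encode enzymes and pumps that can take electrophilic lipids out of a cell: the glutathione transferases Gstm1, Gstp1, Gsta4, Gsto1, Mgst1 and Mgst3, the prostaglandin reductase Ptgr1, and the exporters Abcc1, Abcc4 and Abcc5. They were taken by symbol from the deposited table of 18049 genes, and all 10 were found, each as 1 row. Mouse bone marrow-derived macrophages (C57BL/6, 8 weeks old) in RPMI medium were given 15d-PGJ2-PC at 1 µM (3 libraries), 15d-PGJ2 at 1 µM (3 libraries) or medium as the control (3 libraries) and frozen after 6 h. 15d-PGJ2 is 15-deoxy-Δ12,14-prostaglandin J2; PC is not explained in the labels, and the compound is named only as written there. Nothing in the labels ties replicates to separate cultures or mice, so the p-values rest on a spread that may be technical. Levels are in FPKM, fragments scaled to transcript length and library size, which allows levels of different genes to be set side by side. In bulk RNA, fewer cells of a type and less RNA per cell cannot be told apart.

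15d-PGJ2 is a cyclopentenone: its ring carries a reactive carbon that couples to the sulfur of cysteines and of glutathione. Cells clear such compounds by coupling them to glutathione, which glutathione transferases speed up, by reducing the reactive double bond with NADPH, as Ptgr1 does for several unsaturated lipids, and by pumping the conjugates out through ABCC transporters. Outside the cell, peptidases trim the conjugates on the way to mercapturates. Many of these genes are known targets of the transcription factor Nrf2, which is held back by Keap1 until electrophiles modify cysteines of Keap1.

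Libraries held roughly 5315000 to 5410000 reads each, as read from the smallest steps between low values, and 10876 to 11026 genes at 1 FPKM or more. The macrophage markers Csf1r, Adgre1, Cd68 and Lyz2 were present in every library, and 14 listed markers together gave 9187.34 to 9423.65 FPKM with 15d-PGJ2-PC, 7670.78 to 8169.14 with 15d-PGJ2 and 10474.44 to 10968.17 in controls. All 13 tested macrophage markers fell with 15d-PGJ2, and 10 of 13 fell with 15d-PGJ2-PC, against control. Over all tested genes, 25.0% fell with 15d-PGJ2 and 14.1% with 15d-PGJ2-PC. Summed markers of epidermis, stroma, erythroid cells and neutrophils were higher in controls. The 11 epidermis markers in the table summed to 2.98 to 5.09 FPKM with 15d-PGJ2-PC, 4.52 to 6.76 with 15d-PGJ2 and 24.71 to 29.41 in controls, with Krt5, Krt14, Krt1 and Lor at 0 in each treated library. The 12 stromal markers summed to 8.89 to 9.49 FPKM with 15d-PGJ2-PC, 10.49 to 12.98 with 15d-PGJ2 and 40.05 to 42.56 in controls. The 6 erythroid markers summed to 0.52 to 1.60 FPKM with 15d-PGJ2-PC, 0.98 to 1.15 with 15d-PGJ2 and 20.77 to 32.39 in controls. The 10 neutrophil markers summed to 31.93 to 35.02 FPKM with 15d-PGJ2-PC, 20.54 to 25.76 with 15d-PGJ2 and 39.68 to 42.16 in controls. Some single markers were instead higher with 15d-PGJ2 than in controls. The neutrophil gene Mpo was at 1.99 ± 0.36 FPKM with 15d-PGJ2-PC, 1.69 ± 0.50 FPKM with 15d-PGJ2 and 0.093 ± 0.040 FPKM in controls, and the epidermis gene Sfn at 2.77 ± 0.73 FPKM with 15d-PGJ2-PC, 5.0 ± 1.04 FPKM with 15d-PGJ2 and 3.28 ± 0.23 FPKM in controls (SD, n = 3 each). What these transcripts add to the values below was not tested.

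With 15d-PGJ2, 8 of the 9 tested genes rose against control, where 22.2% of all 11309 tested genes rose and 25.0% fell (limma, adjusted p under 0.05). With 15d-PGJ2-PC, 6 of the 9 rose against control, where 13.8% of all tested genes rose and 14.1% fell. Set against 15d-PGJ2, 15d-PGJ2-PC gave lower levels of 7 of the 9, where 8.30% of all tested genes were lower and 12.3% were higher. None of the 9 was called in the opposite direction in any of these comparisons. The genes were chosen with earlier results of these data known, so these counts describe them and are not a test of the group. The median log2 fold change of the 9 was 0.91 with 15d-PGJ2 and 0.57 with 15d-PGJ2-PC, against medians of -0.02 and -0.00 over all tested genes; both comparisons share the control libraries. Each of the 9 was above 1 FPKM in all 9 libraries, so none was tested through its high group alone. Gsta4 stayed under 1 FPKM everywhere and was not tested.

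**Figure D1:**
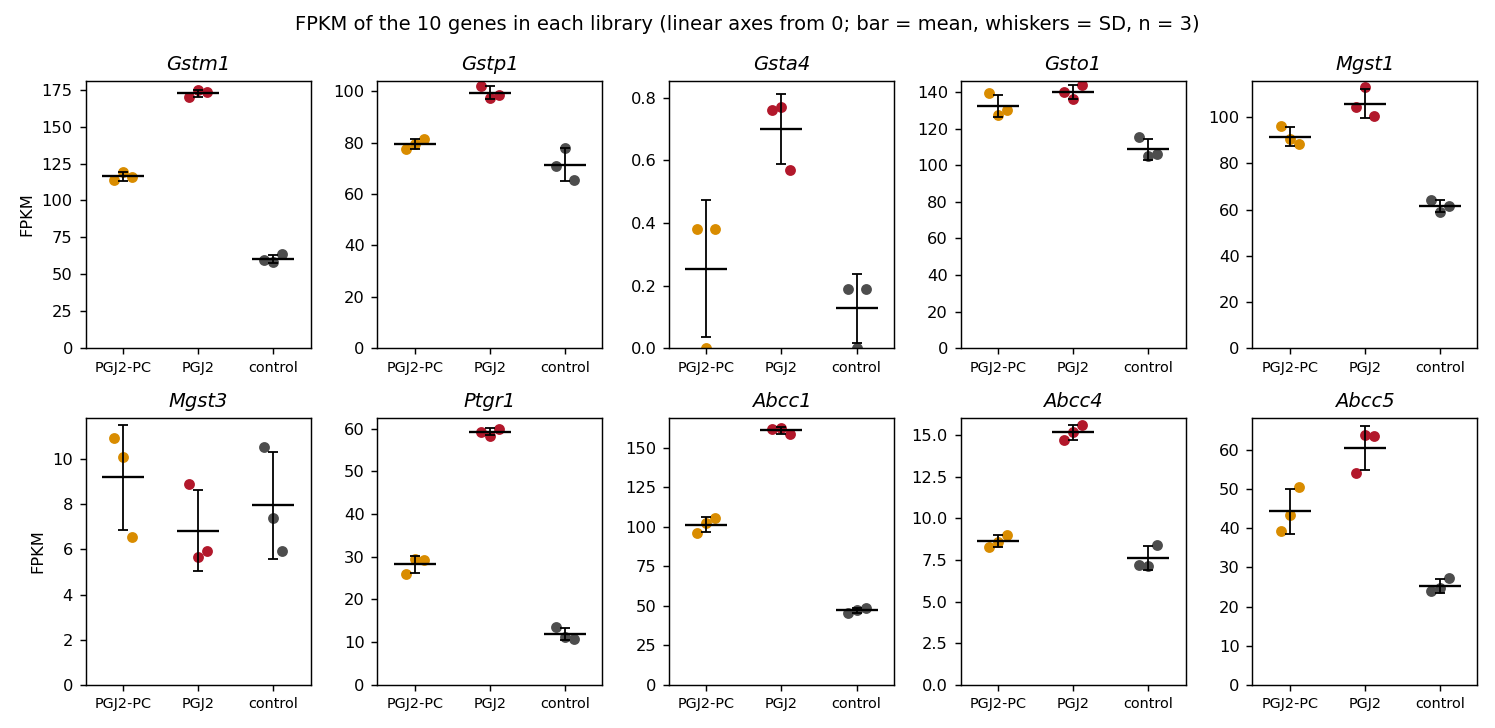
FPKM of each of the 10 genes in the 3 libraries of each group (points), with means (bars) and SD (whiskers); axes are linear and start at 0, and PGJ2-PC and PGJ2 stand for 15d-PGJ2-PC and 15d-PGJ2. Ptgr1, Abcc1 and Gstm1 form 3 separate levels, the Abcc4 libraries with 15d-PGJ2 lie above the other 6, and the groups of Mgst3 overlap.

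Promoter windows (250 bases before to 50 after an annotated start, RefSeq, GRCm38.p6) were found for 8 of the 10 genes, 11 windows in all; Gsta4 and Abcc1 had no entry. They were searched on both strands for TGACNNNGC, the core of the antioxidant response element bound by Nrf2, for TGANTCA, the AP-1 element, and for GAANNTTC, a pair of inverted heat shock factor sites. TGACNNNGC was in 3 of the 11 windows (both of Abcc4 and 1 of 2 of Mgst1) and in 12.4% of all 32851 windows. TGANTCA was in the Gstp1 window and in 7.81% of all windows, and GAANNTTC in the Abcc5 window, the other Mgst1 window and 7.86% of all windows. No window held more than 1 match. The Gstp1 match is followed by GC, so that stretch differs from TGACNNNGC only by a G in place of the C after TGA. The windows of Ptgr1, Gstm1, Gsto1 and Mgst3 held none of these letters. A match is a description of the sequence and not evidence of binding.
Shown 5′ to 3′ on the gene's strand are the windows of 3 genes with a match (in capitals) and of Ptgr1, which changed most. The Mgst1 match begins 56 bases before the start and reads on the opposite strand, the Abcc4 match begins 25 bases before the start, also on the opposite strand, and the Gstp1 match begins 74 bases before it.
Mgst1, chr6:138140277-138140576, plus strand: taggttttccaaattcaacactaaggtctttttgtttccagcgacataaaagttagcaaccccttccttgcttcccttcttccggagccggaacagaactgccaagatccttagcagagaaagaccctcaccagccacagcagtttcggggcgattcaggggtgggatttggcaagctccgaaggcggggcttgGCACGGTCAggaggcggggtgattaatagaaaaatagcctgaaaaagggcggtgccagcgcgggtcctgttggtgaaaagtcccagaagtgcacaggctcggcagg
Abcc4, chr14:118706170-118706469, minus strand: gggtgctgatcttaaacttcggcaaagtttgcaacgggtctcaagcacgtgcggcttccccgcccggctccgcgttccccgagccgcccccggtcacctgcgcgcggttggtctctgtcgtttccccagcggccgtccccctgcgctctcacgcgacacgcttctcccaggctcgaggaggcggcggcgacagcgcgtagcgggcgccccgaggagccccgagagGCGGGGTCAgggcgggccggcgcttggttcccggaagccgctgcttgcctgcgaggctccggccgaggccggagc
Gstp1, chr19:4037863-4038162, minus strand: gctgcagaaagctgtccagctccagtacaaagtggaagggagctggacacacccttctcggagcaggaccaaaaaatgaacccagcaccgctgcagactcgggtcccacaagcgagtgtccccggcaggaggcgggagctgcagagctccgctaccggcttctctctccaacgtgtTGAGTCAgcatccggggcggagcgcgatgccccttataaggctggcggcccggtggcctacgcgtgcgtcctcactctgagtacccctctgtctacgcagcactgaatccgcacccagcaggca
Ptgr1, chr4:58987029-58987328, minus strand: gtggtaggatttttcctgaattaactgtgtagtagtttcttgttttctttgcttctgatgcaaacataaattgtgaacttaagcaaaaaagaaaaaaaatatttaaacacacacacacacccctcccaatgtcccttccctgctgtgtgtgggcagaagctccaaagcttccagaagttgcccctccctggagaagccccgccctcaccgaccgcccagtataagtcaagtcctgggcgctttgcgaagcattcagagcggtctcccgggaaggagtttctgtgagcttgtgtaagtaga

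The reductase gene Ptgr1 had the largest change of the 10 among those tested. Ptgr1 (Entrez 67103, GRCm38.p6 chromosome 4, 58965590 to 58987131) encodes an enzyme that reduces the double bond of unsaturated prostaglandin and leukotriene derivatives. It was at 25.95, 29.46 and 29.21 FPKM with 15d-PGJ2-PC, 59.34, 58.40 and 60.04 FPKM with 15d-PGJ2, and 13.50, 11.20 and 10.81 FPKM in controls. The 3 groups did not overlap, and the 15d-PGJ2-PC libraries lay between the other two groups. Its mean was 59.3 ± 0.82 FPKM with 15d-PGJ2 and 11.8 ± 1.45 FPKM in controls (SD, n = 3 each), a 5.01-fold ratio. The log2 fold change of 2.24 (SE 0.08, adjusted p = 7.00e-09) was matched or passed by 0.292% of all tested genes. With 15d-PGJ2-PC the mean was 28.2 ± 1.96 FPKM, 2.38 times that of controls (log2 fold change 1.19, SE 0.08, adjusted p = 2.19e-06). The direct comparison of 15d-PGJ2-PC with 15d-PGJ2 gave -1.05 on the log2 scale (95% interval -1.22 to -0.87, adjusted p = 1.17e-05).

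Of the 5 tested transferases among the 10 genes, the mu-class gene Gstm1 rose most. Gstm1 (Entrez 14862, chromosome 3, 108012250 to 108017973) encodes a cytosolic enzyme that couples glutathione to electrophiles. Its levels were 113.58, 119.19 and 116.10 FPKM with 15d-PGJ2-PC, 170.05, 174.66 and 173.35 FPKM with 15d-PGJ2, and 59.38, 58.56 and 63.51 FPKM in controls. Again the 3 groups stood apart, with little spread inside each. The ratio of means to control was 1.92 with 15d-PGJ2-PC (log2 fold change 0.93, SE 0.04, adjusted p = 9.15e-08) and 2.86 with 15d-PGJ2 (1.5, SE 0.04, adjusted p = 1.08e-09). The direct comparison of 15d-PGJ2-PC with 15d-PGJ2 gave -0.57 (95% interval -0.65 to -0.48, adjusted p = 7.27e-06).

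Mgst1 (Entrez 56615, chromosome 6, 138140527 to 138156755) encodes a membrane-bound transferase of the endoplasmic reticulum and mitochondria that also reduces lipid peroxides. It was at 96.09, 90.47 and 88.42 FPKM with 15d-PGJ2-PC, 104.35, 113.00 and 100.56 FPKM with 15d-PGJ2, and 64.25, 58.87 and 61.63 FPKM in controls. Every treated library lay above every control, and the 2 treated groups were separated by a narrow margin. The rise was 1.49-fold with 15d-PGJ2-PC (log2 fold change 0.57, SE 0.05, adjusted p = 2.32e-05) and 1.72-fold with 15d-PGJ2 (0.77, SE 0.05, adjusted p = 6.99e-07). The difference between the compounds was -0.21 (95% interval -0.33 to -0.09, adjusted p = 0.0201). That call was lost without 15d-PGJ2 replicate 2 (adjusted p = 0.0770), 15d-PGJ2-PC replicate 2 (0.0649) or 15d-PGJ2-PC replicate 3 (0.0710) and in a fit without the intensity trend (0.0571); over all alternatives the adjusted p ran from 0.0129 to 0.0770.

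Gsto1 and Gstp1 rose less. Gsto1 (Entrez 14873, chromosome 19, 47854973 to 47864790) encodes the omega-class enzyme, which acts mainly as a thioltransferase and reductase, and was the most abundant of the 6 transferase genes in controls. It had 139.44, 127.67 and 129.96 FPKM with 15d-PGJ2-PC, 139.94, 136.40 and 143.92 FPKM with 15d-PGJ2, and 115.25, 104.76 and 106.22 FPKM in controls. Both treated groups lay above the controls and overlapped with each other. Its log2 fold changes against control were 0.28 with 15d-PGJ2-PC (SE 0.05, adjusted p = 0.00127) and 0.36 with 15d-PGJ2 (SE 0.05, adjusted p = 9.98e-05). The 2 compounds differed by -0.08, with a 95% interval of -0.19 to 0.02 (adjusted p = 0.267), so a difference as large as 0.19 is within the interval.

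Gstp1 (Entrez 14870, chromosome 19, 4035411 to 4037912) encodes the pi-class enzyme, whose human form is known to be modified by 15d-PGJ2. Its levels were 77.56, 79.27 and 81.55 FPKM with 15d-PGJ2-PC, 102.08, 97.19 and 98.56 FPKM with 15d-PGJ2, and 70.91, 77.91 and 65.42 FPKM in controls. The 15d-PGJ2 libraries stood above the rest, and 15d-PGJ2-PC replicate 1 lay below control replicate 2. Gstp1 rose 1.39-fold with 15d-PGJ2 (log2 fold change 0.47, SE 0.06, adjusted p = 5.50e-05). With 15d-PGJ2-PC the log2 fold change was 0.16 (95% interval 0.03 to 0.28, adjusted p = 0.0700). That comparison passed without control replicate 2 (0.0108) and with quantile normalization (0.0304), within a range of 0.0108 to 0.204 over all alternatives. The compounds differed by -0.32 (95% interval -0.45 to -0.19, adjusted p = 0.00285). Reads can be shared with the near-identical gene Gstp2, which was at 0, 0.95 and 1.02 FPKM with 15d-PGJ2 and listed at 0 in the other 6 libraries.

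Mgst3 and Gsta4 were low. Mgst3 (Entrez 66447, chromosome 1, 167371966 to 167393841), a membrane-bound relative with leukotriene C4 synthase activity, was at 10.94, 10.08 and 6.55 FPKM with 15d-PGJ2-PC, 8.89, 5.68 and 5.95 FPKM with 15d-PGJ2, and 10.55, 7.38 and 5.92 FPKM in controls. All 3 groups overlapped, and no comparison passed (adjusted p = 0.579 for 15d-PGJ2-PC against control, 0.543 for 15d-PGJ2 against control and 0.284 between the compounds). The 95% interval with 15d-PGJ2 ran from -0.68 to 0.32 on the log2 scale, so changes inside it were not detectable in these libraries. Its values rested on about 33.1 to 64.6 reads per library, and they varied within groups by 25.3% to 29.8%, against 13.6% to 15.8% from counting alone.

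Gsta4 (Entrez 14860, chromosome 9, 78191966 to 78209349), the alpha-class enzyme known for conjugating hydroxynonenal, was at 0.38, 0 and 0.38 FPKM with 15d-PGJ2-PC, 0.76, 0.77 and 0.57 FPKM with 15d-PGJ2, and 0.19, 0 and 0.19 FPKM in controls. These steps stand for 2, 0 and 2 reads with 15d-PGJ2-PC, 4, 4 and 3 reads with 15d-PGJ2, and 1, 0 and 1 reads in controls. Each 15d-PGJ2 library had more Gsta4 reads than any other library, but only a handful. The ratio of 11 reads with 15d-PGJ2 to 2 reads in controls was 5.54, with an exact 95% interval of 1.21 to 51.4 that covers counting error only. In a fit with no filter on low values, Gsta4 passed with 15d-PGJ2 (log2 fold change 0.60, adjusted p = 0.00940) and not with 15d-PGJ2-PC (0.14, adjusted p = 0.557).

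Summed over the 6 transferase genes, transcripts came to 429 ± 7.83 FPKM with 15d-PGJ2-PC, 526 ± 2.43 FPKM with 15d-PGJ2 and 310.3 ± 9.15 FPKM in controls (SD, n = 3 each). Gstm1 made up a larger share in both treated groups than in controls. Over 23 listed transferase genes in the table, Gstm1 took 22.2% ± 0.78 of the summed FPKM with 15d-PGJ2-PC, 27.6% ± 0.43 with 15d-PGJ2 and 15.3% ± 0.96 in controls. Gsto1 took 25.3% ± 0.88 with 15d-PGJ2-PC, 22.4% ± 0.80 with 15d-PGJ2 and 27.5% ± 0.98 in controls. Gstm1 had the highest share with 15d-PGJ2, and Gsto1 in the other 2 groups. These shares were not tested.

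**Figure D2:**
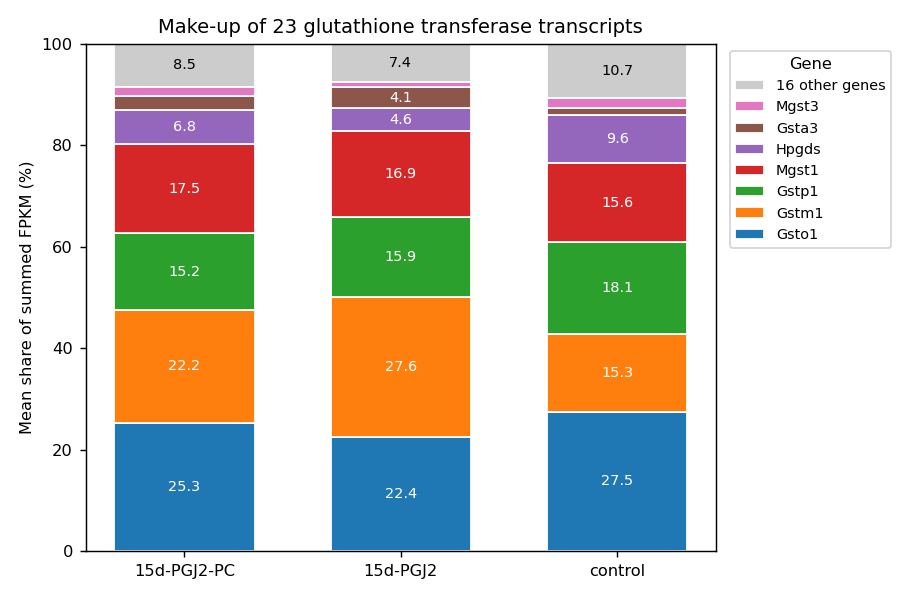
Mean share of each gene (stacked bars, % of summed FPKM) among 23 glutathione transferase transcripts in the 3 libraries of each group, with 16 other genes pooled. The Gstm1 share is 22.2% with 15d-PGJ2-PC, 27.6% with 15d-PGJ2 and 15.3% in controls.

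All 3 exporter genes rose with 15d-PGJ2. Abcc1 (Entrez 17250, chromosome 16, 14361453 to 14474878) encodes MRP1, a pump for glutathione conjugates and leukotriene C4. It was at 96.24, 101.98 and 105.37 FPKM with 15d-PGJ2-PC, 161.78, 162.36 and 158.49 FPKM with 15d-PGJ2, and 45.43, 47.19 and 48.35 FPKM in controls. The 3 groups did not overlap. Abcc1 rose 2.15-fold with 15d-PGJ2-PC (log2 fold change 1.09, SE 0.04, adjusted p = 5.80e-08) and 3.42-fold with 15d-PGJ2 (1.75, SE 0.04, adjusted p = 6.50e-10). The compounds differed by -0.66 (95% interval -0.76 to -0.57, adjusted p = 4.92e-06). Abcc1 was the most abundant of the 3 exporter transcripts in each group, with 68.0% ± 1.90 of their summed FPKM with 15d-PGJ2 and 58.8% ± 1.20 in controls.

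Abcc5 (Entrez 27416, chromosome 16, 20331303 to 20426428) encodes MRP5, a pump known for cyclic nucleotides. It had 39.26, 43.29 and 50.46 FPKM with 15d-PGJ2-PC, 54.10, 63.91 and 63.63 FPKM with 15d-PGJ2, and 24.01, 24.68 and 27.35 FPKM in controls. The groups stood apart, with wider spread in both treated groups than in controls. Its rise was 1.75-fold with 15d-PGJ2-PC (log2 fold change 0.78, SE 0.09, adjusted p = 0.000133) and 2.39-fold with 15d-PGJ2 (1.22, SE 0.09, adjusted p = 1.68e-06). The difference between the compounds was -0.44 (95% interval -0.65 to -0.23, adjusted p = 0.00713).

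Abcc4 rose with 15d-PGJ2 and did not pass with 15d-PGJ2-PC. Abcc4 (Entrez 239273, chromosome 14, 118482692 to 118707856) encodes MRP4, which exports prostaglandins and cyclic nucleotides. It was at 8.30, 8.60 and 9.0 FPKM with 15d-PGJ2-PC, 14.71, 15.17 and 15.59 FPKM with 15d-PGJ2, and 7.20, 7.15 and 8.42 FPKM in controls. The 15d-PGJ2 libraries lay well above the other 6, and 15d-PGJ2-PC replicate 1 lay below control replicate 3. Abcc4 rose 2.0-fold with 15d-PGJ2 (log2 fold change 0.91, SE 0.07, adjusted p = 2.55e-06). With 15d-PGJ2-PC its log2 fold change was 0.17 (95% interval 0.00 to 0.33, adjusted p = 0.127); without control replicate 3 it was 0.24 and passed (adjusted p = 0.0379, range 0.0379 to 0.308 over all alternatives). The direct comparison of the compounds gave -0.75 (95% interval -0.91 to -0.58, adjusted p = 5.83e-05).

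**Figure D3:**
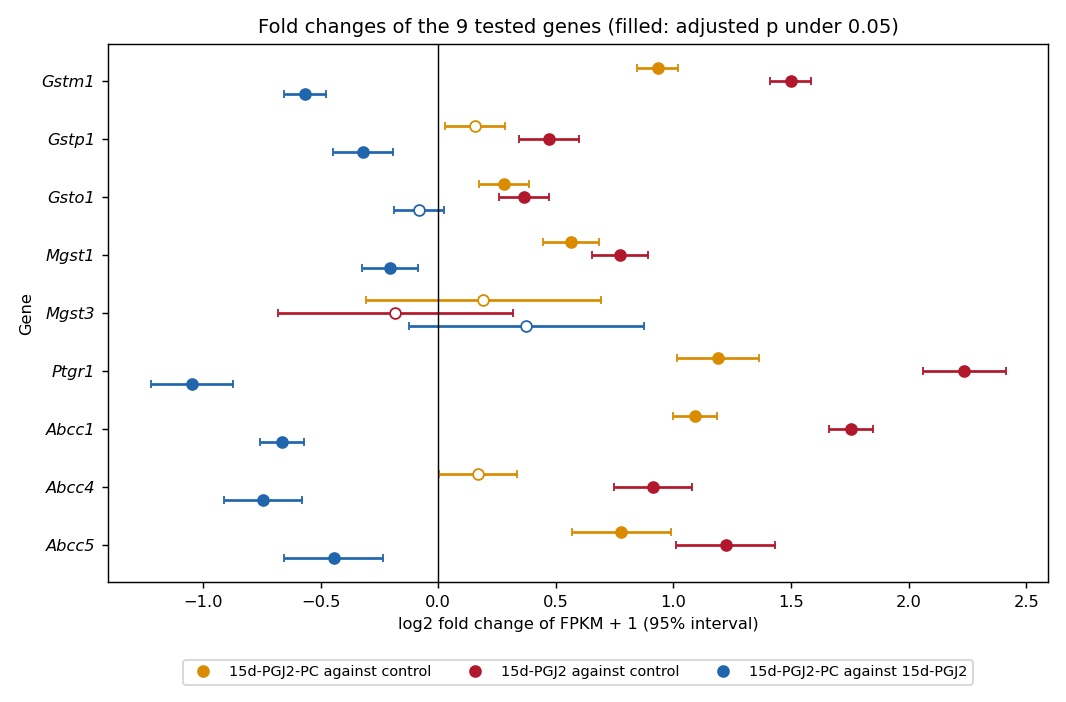
Log2 fold change of FPKM + 1 (x axis) with 95% intervals for the 9 tested genes in the comparisons of each compound with control and of 15d-PGJ2-PC with 15d-PGJ2; filled points have an adjusted p under 0.05. Ptgr1 has the largest values, up to 2.24, and the Mgst3 intervals all cover 0.

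The 2 compounds were compared at the same dose and time. The rise in FPKM with 15d-PGJ2-PC, taken as a share of the rise with 15d-PGJ2 over the same controls, varied between genes. It was 75.3% for Gsto1 and 67.8% for Mgst1, with ranges of 64.0% to 82.8% for Gsto1 and 62.8% to 73.6% for Mgst1 when each library was left out in turn. Abcc5 (53.9%), Gstm1 (49.7%) and Abcc1 (47.6%) were near the middle. Ptgr1 was at 34.5% (33.2% to 36.9%), Gstp1 at 28.9% (20.3% to 36.3%) and Abcc4 at 13.8% (11.2% to 18.3%). Gstp1 and Abcc4 did not pass with 15d-PGJ2-PC against control, and the ranges are not confidence intervals. Whether these shares differ between genes was not tested.

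**Figure D4:**
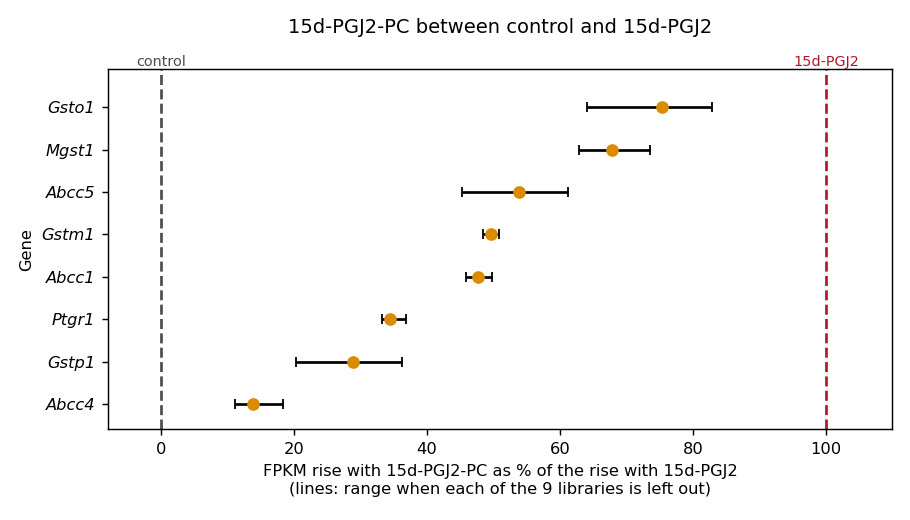
Rise in mean FPKM over control with 15d-PGJ2-PC as a percentage of the rise with 15d-PGJ2 (points) for the 8 genes that rose with 15d-PGJ2, with the range when each of the 9 libraries is left out (lines); dashed lines mark control (0) and 15d-PGJ2 (100). The shares run from 13.8% for Abcc4 to 75.3% for Gsto1. Abcc4 and Gstp1 did not pass with 15d-PGJ2-PC against control.

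Other genes of the same pathway were read against the share called over all tested genes, which with 15d-PGJ2 was 22.2% higher and 25.0% lower and with 15d-PGJ2-PC was 13.8% higher and 14.1% lower. Of 23 further transferase and related genes, 19 were in the table and 11 were tested. Against control, 3 rose, 2 fell and 6 did not pass with 15d-PGJ2, and 2 rose, none fell and 9 did not pass with 15d-PGJ2-PC. These counts are near those shares. The 3 that rose with 15d-PGJ2 include Ptges, which entered the test through treated libraries alone. Gsta3, an alpha-class transferase, was at 14.39, 13.71 and 15.01 FPKM with 15d-PGJ2-PC, 27.89, 27.04 and 22.59 FPKM with 15d-PGJ2, and 6.07, 5.36 and 3.62 FPKM in controls, groups that did not overlap. Its log2 fold change was 1.38 with 15d-PGJ2-PC (adjusted p = 4.02e-05) and 2.17 with 15d-PGJ2 (adjusted p = 3.96e-07). Gsta3 is also abundant in liver; 5 other liver markers summed to 0.67 to 0.86 FPKM with 15d-PGJ2-PC, 0.51 to 1.68 with 15d-PGJ2 and 0.71 to 1.17 in controls. Gstm4, a mu-class relative of Gstm1 with which reads can be shared, rose by 0.35 with 15d-PGJ2-PC (adjusted p = 0.00476) and 0.47 with 15d-PGJ2 (adjusted p = 0.000357).

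Hpgds, the prostaglandin D synthase that is itself a sigma-class transferase and acts upstream of 15d-PGJ2, fell with 15d-PGJ2. It was at 35.8 ± 0.84 FPKM with 15d-PGJ2-PC, 28.5 ± 1.39 FPKM with 15d-PGJ2 and 37.7 ± 2.17 FPKM in controls (SD, n = 3 each). It fell by 0.39 on the log2 scale with 15d-PGJ2 (adjusted p = 0.000190) and had a value of -0.07 with 15d-PGJ2-PC (adjusted p = 0.380). Gstk1, the kappa-class gene, fell by 0.46 with 15d-PGJ2 (adjusted p = 0.0279) but did not pass without 15d-PGJ2 replicate 2 (0.103), control replicate 2 (0.104) or control replicate 3 (0.0575), or with no filter (0.0630, range 0.0185 to 0.104). The microsomal prostaglandin E synthase gene Ptges was at 0.69, 0.79 and 1.14 FPKM with 15d-PGJ2-PC, 1.23, 0.99 and 1.09 FPKM with 15d-PGJ2, and 0.73, 0.34 and 0.59 FPKM in controls. It entered the test through treated libraries alone, since no control reached 1 FPKM, so its call supports nothing. Its log2 value with 15d-PGJ2 was 0.44 (adjusted p = 0.0404), and it did not pass without 15d-PGJ2 replicate 2 (0.0637), control replicate 2 (0.148) or control replicate 3 (0.0752), in the 6 libraries of the comparison (0.0527) or with a replicate block (0.0548, range 0.0134 to 0.148 over the 14 alternatives that kept it).

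Of 11 other listed exporters, 4 were tested, and with 15d-PGJ2 0 rose, 1 fell and 3 did not pass, while none passed with 15d-PGJ2-PC. 1 of 4 lower lies at the share over all tested genes (25.0%). Abcc10, named after its values were seen, was at 4.57 ± 0.26 FPKM with 15d-PGJ2-PC, 4.55 ± 0.08 FPKM with 15d-PGJ2 and 3.77 ± 0.18 FPKM in controls (SD, n = 3 each). Its log2 value of 0.22 with 15d-PGJ2 missed the threshold (adjusted p = 0.0516) and passed with a pseudocount of 0.1 (0.0476), quantile normalization (0.0285), median-of-ratios scaling (0.0387) and no trend (0.0111). With 15d-PGJ2-PC it was 0.22 (adjusted p = 0.0717) and passed with no trend (0.0181). Abcg2, a multidrug pump, was at 2.77 ± 0.04 FPKM with 15d-PGJ2-PC, 1.77 ± 0.18 FPKM with 15d-PGJ2 and 3.09 ± 0.35 FPKM in controls (SD, n = 3 each), and fell by 0.56 on the log2 scale with 15d-PGJ2 (adjusted p = 0.00144). Abcc3, a pump for glucuronide and other conjugates, was at 71.0 ± 1.38 FPKM with 15d-PGJ2-PC, 59.8 ± 5.02 FPKM with 15d-PGJ2 and 65.1 ± 1.28 FPKM in controls (SD, n = 3 each). Abcc3 did not pass against control with either compound (adjusted p = 0.131 with 15d-PGJ2-PC and 0.0974 with 15d-PGJ2) but was higher with 15d-PGJ2-PC than with 15d-PGJ2 by 0.25 (adjusted p = 0.00987). Without 15d-PGJ2 replicate 1, Abcc3 fell with 15d-PGJ2 against control (adjusted p = 0.0113, range 0.0113 to 0.559). In the 6 libraries of its comparison alone, Abcc3 rose with 15d-PGJ2-PC (adjusted p = 0.0483, range 0.0483 to 0.281). The higher level of Abcg2 with 15d-PGJ2-PC than with 15d-PGJ2 (0.45, adjusted p = 0.0134) did not pass without 15d-PGJ2 replicate 3 (adjusted p = 0.0505).

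Of 9 reductases and prostaglandin-degrading enzymes, all tested, 3 rose, 3 fell and 3 did not pass with 15d-PGJ2, and 2 rose and 7 did not pass with 15d-PGJ2-PC. Over all tested genes 22.2% rose and 25.0% fell with 15d-PGJ2 and 13.8% rose with 15d-PGJ2-PC, so the counts are not far from the background. Zadh2, also called prostaglandin reductase 3, was at 10.68, 10.16 and 10.52 FPKM with 15d-PGJ2-PC, 15.24, 14.18 and 14.80 FPKM with 15d-PGJ2, and 6.20, 6.89 and 7.08 FPKM in controls. It rose by 0.57 with 15d-PGJ2-PC (adjusted p = 0.000116) and by 1.03 with 15d-PGJ2 (adjusted p = 4.84e-07). Ptgr2, which reduces keto-prostaglandins, was instead at 17.49, 17.18 and 16.31 FPKM with 15d-PGJ2-PC, 11.39, 11.69 and 11.96 FPKM with 15d-PGJ2, and 17.21, 18.20 and 18.23 FPKM in controls. Ptgr2 fell by 0.57 with 15d-PGJ2 (adjusted p = 9.99e-06), and its value with 15d-PGJ2-PC was -0.07 (adjusted p = 0.402). Hpgd, the dehydrogenase that starts prostaglandin breakdown, fell by 0.63 with 15d-PGJ2 (adjusted p = 0.00784), with 1.84 ± 0.34 FPKM against 3.36 ± 0.16 FPKM in controls (SD, n = 3 each). Vat1 and Mecr, reductases of the same superfamily, rose by 0.44 and 0.43 with 15d-PGJ2 (adjusted p = 1.22e-05 and 0.00933), and Vat1 by 0.39 with 15d-PGJ2-PC (adjusted p = 7.33e-05). Tecr, which reduces fatty enoyl chains, fell by 0.21 with 15d-PGJ2 (adjusted p = 0.0212) and lost that call with quantile normalization (0.113) and without control replicate 1 (0.0639), control replicate 2 (0.0817) or 15d-PGJ2 replicate 3 (0.0833, range 0.00779 to 0.113).

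In the mercapturate pathway, which trims glutathione conjugates after export, Ggt5 rose and 3 peptidase genes fell with 15d-PGJ2. Of 13 listed genes 11 were in the table and 5 were tested; with 15d-PGJ2 1 rose, 3 fell and 1 did not pass, where 22.2% of all tested genes rose and 25.0% fell. Ggt5, a γ-glutamyl transferase that removes the glutamate of conjugates such as leukotriene C4, was at 5.4, 6.37 and 5.56 FPKM with 15d-PGJ2-PC, 10.78, 11.05 and 9.69 FPKM with 15d-PGJ2, and 1.67, 1.94 and 1.90 FPKM in controls. It rose by 1.25 with 15d-PGJ2-PC (adjusted p = 4.22e-06) and by 2.02 with 15d-PGJ2 (adjusted p = 3.33e-08). Anpep, a surface aminopeptidase, was at 41.90, 39.25 and 39.33 FPKM with 15d-PGJ2-PC, 23.48, 19.48 and 22.77 FPKM with 15d-PGJ2, and 47.82, 44.11 and 47.87 FPKM in controls. Anpep fell by 1.06 with 15d-PGJ2 (adjusted p = 4.75e-07), and the dipeptidase gene Dpep2 and the aminopeptidase gene Lap3 fell by 0.65 and 0.30 (adjusted p = 0.000412 and 0.00376). With 15d-PGJ2-PC, Ggt5 rose and Anpep and Dpep2 fell, by 0.21 and 0.36 (adjusted p = 0.0470 and 0.0245). The calls of Anpep and Dpep2 were often lost: Anpep lost it in 11 of 18 alternatives (adjusted p 0.0139 to 0.127) and Dpep2 in 4 of 18 (0.0167 to 0.0904).

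Most genes that supply glutathione rose. This list and that of the Nrf2 system were chosen with earlier results of these data known. Their counts beside the shares over all tested genes are a description and not a test. Of 10 listed, 8 rose and 2 did not pass with 15d-PGJ2, and 7 rose and 3 did not pass with 15d-PGJ2-PC, where 22.2% of all tested genes rose with 15d-PGJ2 and 13.8% with 15d-PGJ2-PC. Ggct, among the 8, lost its call with 15d-PGJ2 in 5 of 18 alternatives (adjusted p 0.00868 to 0.123). Gclm, the regulatory subunit of the rate-limiting ligase, was at 269.7 ± 5.53 FPKM with 15d-PGJ2-PC, 486 ± 3.77 FPKM with 15d-PGJ2 and 62.8 ± 2.55 FPKM in controls (SD, n = 3 each). Its log2 fold change was 2.09 with 15d-PGJ2-PC (adjusted p = 8.22e-11) and 2.93 with 15d-PGJ2 (adjusted p = 2.54e-12). Gclc, the catalytic subunit of the rate-limiting ligase, was at 24.5 ± 1.33 FPKM with 15d-PGJ2-PC, 47.4 ± 2.34 FPKM with 15d-PGJ2 and 7.92 ± 0.67 FPKM in controls (SD, n = 3 each). Gsr, which regenerates reduced glutathione, was at 149.7 ± 2.83 FPKM with 15d-PGJ2-PC, 192 ± 8.54 FPKM with 15d-PGJ2 and 75.7 ± 2.89 FPKM in controls (SD, n = 3 each). Of 10 genes of the Nrf2 system, 9 rose with each compound against control, where 22.2% of all tested genes rose with 15d-PGJ2 and 13.8% with 15d-PGJ2-PC. The 9 include Keap1, which holds Nrf2 back. Nfe2l2, which encodes Nrf2 itself, did not pass with either compound. It was at 79.70, 73.25 and 76.42 FPKM with 15d-PGJ2-PC, 79.99, 75.67 and 80.15 FPKM with 15d-PGJ2, and 76.34, 76.66 and 79.52 FPKM in controls. The heme oxygenase gene Hmox1 was at 2781 ± 54.2 FPKM with 15d-PGJ2-PC, 6540.1 ± 124 FPKM with 15d-PGJ2 and 332 ± 8.11 FPKM in controls (SD, n = 3 each). The sulfiredoxin gene Srxn1 rose by 2.15 on the log2 scale with 15d-PGJ2-PC (adjusted p = 6.84e-11) and by 2.84 with 15d-PGJ2 (adjusted p = 2.54e-12), and the thioredoxin reductase gene Txnrd1 by 1.57 with 15d-PGJ2-PC (adjusted p = 7.35e-10) and by 2.0 with 15d-PGJ2 (adjusted p = 5.87e-11).

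**Figure D5:**
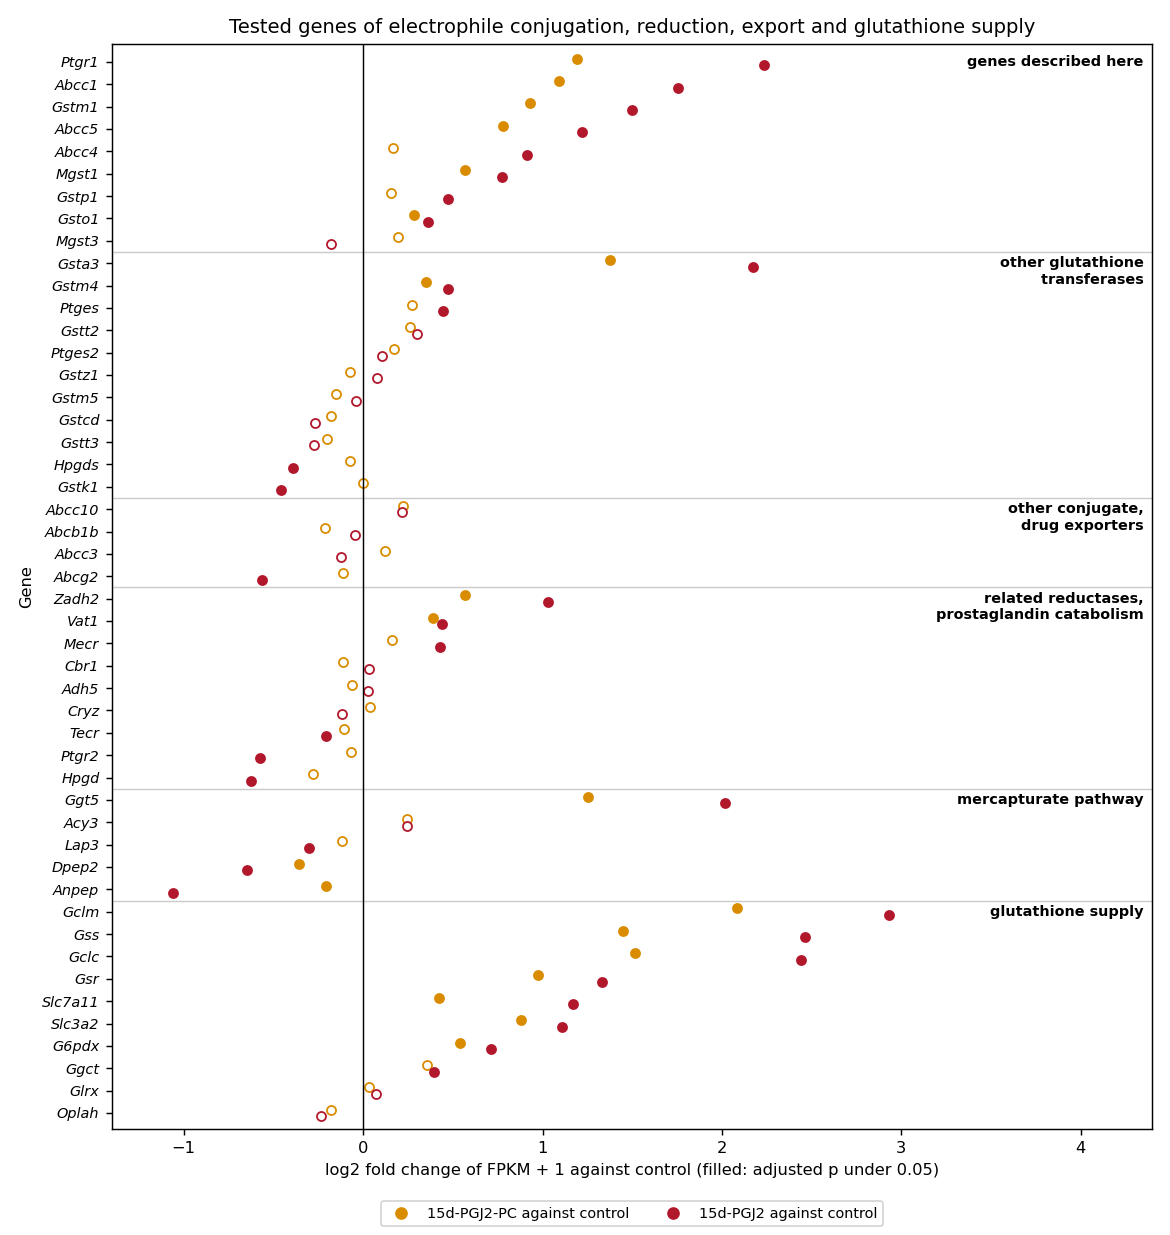
Log2 fold change of FPKM + 1 against control (x axis) with 15d-PGJ2-PC and with 15d-PGJ2 for every tested gene of 6 lists, ordered within a list by the value with 15d-PGJ2; filled points have an adjusted p under 0.05. Outside the genes described here, Gclm, Gss and Gclc of glutathione supply lie furthest to the right and Anpep, at -1.06 with 15d-PGJ2, furthest to the left.

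For the 4 genes that changed most, the 2 tested genes with the most similar profile over the 9 libraries were sought. Genes with Rik, Gm, Mir, Snor, LOC, pseudogene or number-led names were left out of the search. Similarity was the root mean square distance between log2 values centred on the control mean. For Ptgr1 these were the mitochondrial carrier gene Slc25a33 (distance 0.101) and the co-chaperone gene Dnaja1 (0.131). For Abcc1 they were Jade3 (0.0722) and the chaperone gene Hspa8 (0.0728), and for Gstm1 the heme transporter gene Slc48a1 (0.0651) and the clathrin light chain gene Cltb (0.0728). For Abcc5 they were AI314180 (0.0783) and the chaperonin gene Cct3 (0.0881). Slc48a1 was at 249.8 ± 4.65 FPKM with 15d-PGJ2-PC, 373 ± 11.2 FPKM with 15d-PGJ2 and 133 ± 3.85 FPKM in controls (SD, n = 3 each).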

How the data were processed

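The authors deposited 1 table of FPKM values per gene, per the file headers, with 2 decimals and 1 column per library. Per the submitters' processing notes, reads were aligned with BWA and the build was mm10; the counting tool is not given in the sources used here. Of the symbols, 23 had become dates and were restored by Entrez number. Depth was estimated from the spacing of low values of single-transcript genes with GENCODE M21 lengths, which may differ from the authors' lengths.

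A gene entered the test if 3 or more libraries reached 1 FPKM (11309 genes), tested on log2(FPKM + 1), which understates changes of low genes, with limma 3.58.1 in R 4.3.3 (moderated test with intensity trend, 2-sided, all 9 libraries, no covariate). P-values were adjusted by Benjamini-Hochberg over all tested genes of a comparison, threshold 0.05. Intervals are 95%; fold ratios are of mean FPKM.

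The genes and lists were chosen with earlier results of these data known. Named beyond the 10 genes: up to 6 passing genes of a pathway list by smallest p (3 each for glutathione supply and the Nrf2 system), and the 2 nearest profiles of the 4 most changed genes. Gene coordinates and promoters are from RefSeq, GRCm38.p6. Alternatives were other pseudocounts, filters, scalings, no trend, 6 libraries, a replicate block and each library left out. Besides, 1 gene was left out of the exporter list and is not reported here, and listed genes that did not pass are given by counts.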

Additional observations from a re-analysis of the deposited data

How the results depend on the processing

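Across 18 alternatives the number of the 10 genes called higher with 15d-PGJ2 against control was 8 or 9 (9 with no filter, which admits Gsta4), the number called higher with 15d-PGJ2-PC against control was 6 or 7, and the number lower with 15d-PGJ2-PC than with 15d-PGJ2 was 6 or 7; the opposite counts were 0 in each alternative. Over all tested genes the same counts, in that order, ran from 2168 to 2713, 1282 to 1596 and 662 to 1109, with 8254 to 18049 genes tested. Of 486 gene-level repeats, 479 kept their side of the threshold, 4 lost and 3 gained a call, and no called value changed sign. Mgst3, not called, changed sign with 15d-PGJ2 without control replicate 1 (log2 value 0.02, against -0.18 with all libraries). The changed calls of Mgst1, Gstp1 and Abcc4 stand beside their values, and their cause was not tested. The repeats for other pathway genes were added after the data were seen. Replicate numbers are shared between groups. Deviations of same-numbered libraries correlated at -0.04 to 0.05, and those of treated libraries with their same-numbered controls were all positive (0.01 to 0.05). 15d-PGJ2 replicate 2 correlated best with 15d-PGJ2-PC replicate 3 (0.10). Correlations this weak, with 3 libraries per group, cannot decide whether the numbers pair the libraries. With a replicate block the counts were 8, 6 and 7, where 2469, 1499 and 887 of all 11309 tested genes were called. Depth limits Gsta4, with 0 to 4 reads per library.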
